A study of Mus musculus with 10 samples.

Results

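Cadherins and protocadherins are the calcium-dependent adhesion molecules by which cells recognise and hold their neighbours. In the count table of the study these genes were taken by symbol, as *Cdh* followed by a number, *Pcdha*, *Pcdhb* or *Pcdhg* followed by anything, or *Pcdh* followed by a number and an optional letter. This gave 93 Ensembl identifiers of 53801 in the table, under 92 symbols, because 2 identifiers carry the symbol *Pcdha11*. They comprise 23 cadherins, 12 non-clustered protocadherins and 58 isoforms of the 3 protocadherin clusters (14 alpha, 22 beta and 22 gamma). The rule reads gene symbols only. RNA was measured in 10 libraries of AtT20/D16v-F2 cells, a mouse corticotroph line derived from a pituitary tumour. Of these, 5 came from a line stably carrying a lentivirus that expresses *Creb3l1*-shRNA1, a short hairpin RNA against the transcription factor *Creb3l1*, and 5 from a line carrying a non-targeting shRNA. Each condition is thus 1 stable line grown in the same serum-containing medium, and a difference between the conditions and a difference between the lines cannot be told apart. The paper calls the replicates of all its experiments biological. It does not say whether a line was 1 clone or a pool of transduced cells, or how the 5 RNA samples of a line were grown. The P values therefore measure the spread between samples of a line, and not between independently made lines.

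The target of each hairpin is shown because it is the sole designed difference between the lines. The capitals mark the bases that would pair with positions 2 to 8 of the guide strand, the seed by which a guide can also bind transcripts other than its target.
Creb3l1-shRNA1: gagtcggatttccTCAACAAt
Non-targeting shRNA: atcatgttaggcgTACGGACt
The word TCAACAA occurs in the longest annotated transcript of 14 of the 52 cadherin and protocadherin genes with enough counts to be tested (26.9%) and of 23.1% of 14315 tested genes. The longest unbroken run of the 21-base *Creb3l1* target in any of the 52 was 10 bases, in *Cdh23* and *Pcdhb9*, against all 21 in *Creb3l1*. Of the 14 genes with the word, 9 were called higher in the knockdown line and 3 lower (*Cdh22*, *Cdh23* and *Pcdh17*), by the test described next, which called 28 of the 52 higher and 4 lower, and 40.7% of all genes in either direction. Whether the word has a part in any of these changes was not tested.

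Levels are given as normalised counts, that is, reads counted on a gene divided by the effective size of the library and multiplied by the mean effective size of the 10 libraries. Total counts were between 17420698 and 22205107 per library. *Creb3l1* itself had 3805, 3864, 3695, 3551 and 3531 normalised counts in non-targeting replicates 1 to 5 and 1093, 1133, 1014, 1159 and 1051 in *Creb3l1*-shRNA1 replicates 1 to 5. It was thus 3.38-fold lower in the knockdown line (log2 fold change -1.76 ± 0.036 (SE), adjusted P = 2.1e-33). A gene is called higher or lower where the adjusted P of edgeR's quasi-likelihood test is under 0.01. This held for 40.7% of the 14336 genes tested, 20.6% higher and 20.1% lower, with a median log2 fold change of -0.0025. One control library, non-targeting replicate 3, had 4.13% of its counts on the single gene *Gm42418*, against 0.106% to 0.191% in the others. Without it 32 cadherin and protocadherin genes were called, as many as with it, although *Cdh23* lost its call (adjusted P = 0.011).

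The corticotroph identity of the lines was checked on its markers. *Pomc*, the hormone precursor of corticotrophs, had 131411 ± 4050 normalised counts in the non-targeting line and 92045 ± 2652 in the knockdown line (mean ± SD, n = 5), and *Tbx19*, *Neurod1*, *Pcsk1* and *Pitx1* had means of at least 892 in both lines, while *Avpr1b* had no count in any library. Of the 6 corticotroph markers tested, *Crhr1* included, 2 were called higher and 3 lower (83.3% called, against 40.7% of all genes). By quantitative PCR the paper found no change of *Pomc* mRNA in its *Creb3l1* knockdown lines, unlike the lower mean count here. Of 6 hormone genes of other pituitary cells none had enough counts to be tested, and *Prl*, *Tshb* and *Fshb* had no count at all. Of 5 endothelial markers, *Kdr* and *Emcn* were at 0 and 1 was tested and called lower, and the summed level of the 5 was 18.01 to 31.0 in the non-targeting line and 7.49 to 11.9 in the knockdown line. Of 5 fibroblast markers (*Col1a1*, *Col1a2*, *Dcn*, *Pdgfra* and *Lum*), 2 were tested and not called, with a median log2 fold change of 0.39. Only *Lum* was at 0, and the sums were 814 to 1153 and 943 to 1681, so fibroblast markers were not absent. Of 4 leukocyte markers, *Ptprc* and *Cd3e* were at 0, 1 was tested and not called, and the sums were 34.2 to 51.9 and 24.6 to 38.2. The part of other cell types in the results below was not tested.

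Classical cadherins hold cells together by binding the same cadherin on the next cell, and their tails are tied to actin through catenins. They are divided into type I, such as E-cadherin (*Cdh1*) and N-cadherin (*Cdh2*), and type II, which occur in overlapping combinations in the nervous system. Clustered protocadherins are encoded by 3 neighbouring gene clusters in which each variable exon has its own promoter. Single neurons switch on a few of these promoters at random, through CTCF and cohesin, and the resulting set of isoforms lets a cell tell its own processes from those of others. The last isoforms of the alpha and gamma clusters, called C-type, are as a rule transcribed in most cells of a kind and not by random choice. The other protocadherins stand alone in the genome and are called non-clustered.

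Of the 93 identifiers, 52 had enough counts to be tested and 32 of these were called (61.5%, against 40.7% of all genes). Of the 32, 28 were higher in the knockdown line and 4 were lower. The median log2 fold change of the 52 was 0.38. It was 0.41 for the 40 on chromosome 18, which include the clusters (62.5% called, 24 higher and 1 lower). For the 12 on other chromosomes it was -0.10 (58.3% called, 4 higher and 3 lower). The 9 cadherins tested also had a median of -0.10 (55.6% called, 3 higher and 2 lower), so the rise was not shared by the whole family. All values are averages over whole cultures, in which more cells transcribing a gene and more RNA per cell cannot be told apart. With the further demand of a change of at least 1.5-fold, 12 were higher and 2 were lower, 14 of 52, where 7.73% of all genes tested met the same demand (3.28% higher and 4.45% lower). In 30 of the 52 the libraries of the lines did not overlap, 26 of them higher in the knockdown line, as was so for 36.0% of all genes tested (18.3% higher). Since 50 of the 52 had at least 10 counts in every library of both lines, few had entered the test through one line alone. The exceptions were *Cdh18* and *Pcdhb8*, the latter with at least 10 counts in every library of the knockdown line only.

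The other 41 identifiers had at most 17 counts in any library. E-cadherin (*Cdh1*), the main cadherin of epithelia, was among them with 5 counts in all 10 libraries together, and *Cdh4* (R-cadherin) had 1. *Cdh5* (VE-cadherin, the endothelial cadherin), *Cdh6*, *Cdh8*, *Cdh9*, *Cdh16*, *Pcdh8* and *Pcdha1* had no count in any library. A count of 0 in 1 library alone allows up to 3 counts there as far as counting error goes, and 0 in all 10 allows fewer per library. No clustered isoform was present in all 5 libraries of one line and absent from at least 4 of the other. The single member with such a pattern was the non-clustered *Pcdh18*, with counts of 2, 0, 0, 0 and 0 in the non-targeting line and 1, 1, 1, 2 and 1 in the knockdown line. These counts are too low for a comparison.

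Among the type I cadherins, N-cadherin was the one expressed at a high level. *Cdh2* (ENSMUSG00000024304, chromosome 18 of GRCm38 from 16588877 to 16809246, minus strand) had 2759, 2875, 2855, 2762 and 2800.4 normalised counts in the non-targeting libraries and 3699, 3791, 3707, 3567 and 3689 in the knockdown libraries. Every knockdown library was above every control library, and the rise was 1.31-fold (log2 fold change 0.39 ± 0.027, adjusted P = 7.7e-16). *Cdh3* (P-cadherin) had 96.2 ± 5.06 and 89.3 ± 13.8 normalised counts in the non-targeting and knockdown lines (SD, n = 5, adjusted P = 0.48), and *Cdh15* (M-cadherin, the cadherin of muscle) 75.01 ± 15.6 and 64.7 ± 10.7 (adjusted P = 0.22). In both genes the libraries of the lines overlapped. In these cells *Cdh2* was thus present with little *Cdh3* or *Cdh15* and almost no *Cdh1*, in both lines.

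The type II cadherins moved in both directions. *Cdh22* (ENSMUSG00000053166, chromosome 2 from 165111507 to 165234853, minus strand) encodes PB-cadherin, named for pituitary and brain. It had 268, 273, 275, 278 and 245 normalised counts in the non-targeting libraries and 127, 147, 164, 135 and 165 in the knockdown libraries. The lines were far apart, with a level 1.81-fold lower in the knockdown line (log2 fold change -0.86 ± 0.084, adjusted P = 1.6e-11). *Cdh10* (ENSMUSG00000022321, chromosome 15 from 18818947 to 19014236, plus strand), a type II cadherin best known from the brain, had 92.5, 119.7, 110.0, 89.2 and 84.9 in the non-targeting libraries and 175, 138, 158, 201 and 182 in the knockdown libraries. It rose 1.74-fold without overlap (log2 fold change 0.80 ± 0.11, adjusted P = 5.2e-08). Per kilobase of exon, *Cdh22* was the more abundant of the pair by level in the non-targeting line, at 72.3 against 9.88 normalised counts per kb, and in the knockdown line the values were 39.9 and 16.99. *Cdh7* rose to a lesser degree, from 85.0 ± 9.24 to 109.1 ± 8.92 normalised counts (adjusted P = 0.0057), and its call was lost in 7 of the alternative fits, DESeq2 among them (adjusted P = 0.010). *Cdh24*, at 243 ± 18.1 and 283 ± 20.9, was higher in the knockdown line in every library but missed the threshold (adjusted P = 0.014). Its closest libraries were at 259.3 in the control line and 259.6 in the knockdown line. With library offsets for transcript length and GC content *Cdh24* was called higher (log2 fold change 0.24, edgeR adjusted P = 0.0043). *Cdh18*, at 12.1 ± 3.32 and 9.38 ± 3.79, was not called (adjusted P = 0.42).

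The promoter windows at hand for the type II cadherins that changed most in each direction differ in base composition. They are printed for that reason, with CG dinucleotides in capitals. Each window runs from 250 bases before to 50 bases after a RefSeq transcription start in GRCm38.p6.
Cdh22, chr2:165234688-165234987, minus strand: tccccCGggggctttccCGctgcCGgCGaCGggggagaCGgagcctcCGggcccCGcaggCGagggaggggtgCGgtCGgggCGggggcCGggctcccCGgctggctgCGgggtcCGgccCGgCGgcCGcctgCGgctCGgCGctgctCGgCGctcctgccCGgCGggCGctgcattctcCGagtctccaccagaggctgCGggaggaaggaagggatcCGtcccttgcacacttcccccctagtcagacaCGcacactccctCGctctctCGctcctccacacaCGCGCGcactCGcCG
Cdh10, chr15:18820079-18820378, plus strand: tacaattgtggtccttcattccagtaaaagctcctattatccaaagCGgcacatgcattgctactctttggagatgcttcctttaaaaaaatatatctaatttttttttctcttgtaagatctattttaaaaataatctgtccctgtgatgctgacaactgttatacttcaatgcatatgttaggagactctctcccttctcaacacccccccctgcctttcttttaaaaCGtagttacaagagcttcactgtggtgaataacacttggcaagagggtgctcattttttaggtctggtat
The *Cdh22* window has a GC content of 76.3% and 38 CG dinucleotides, and the *Cdh10* window 37.7% and 2. The *Cdh10* window lies inside the gene, downstream of its annotated beginning at 18818947. The *Cdh22* window spans 165234853, where its gene begins on the minus strand. The contrast in composition is thus not between like positions of the genes. Windows of this kind were at hand for 11 of the 52 tested members (14 windows) and for none of the clustered isoforms. The G-box core GACGTG, a word that CREB-like factors bind, was sought on both strands, as was the E-box CACCTG, which ZEB and SNAI repressors bind. GACGTG is in 6.38% of 32851 windows and CACCTG in 20.2%. Neither word is in the *Cdh22* or *Cdh10* windows, and of the 11 genes *Cdh7* alone holds either, with both words at separate places in 1 of its 3 windows and CACCTG in the other two. These matches describe the letters and were not tested as binding sites.

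*Cdh23*, a long cadherin that forms the tip links of inner-ear hair cells, was present at a low level. It had 32.2, 38.1, 36.7, 35.7 and 33.9 normalised counts in the non-targeting libraries and 20.2, 18.2, 24.5, 26.5 and 22.7 in the knockdown libraries. These do not overlap, and the level was 1.57-fold lower in the knockdown line (log2 fold change -0.65 ± 0.20, adjusted P = 0.0055). The call was lost when any of 6 libraries was left out or when genes of low count were kept, with adjusted P between 0.011 and 0.017.

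**Figure D1:**
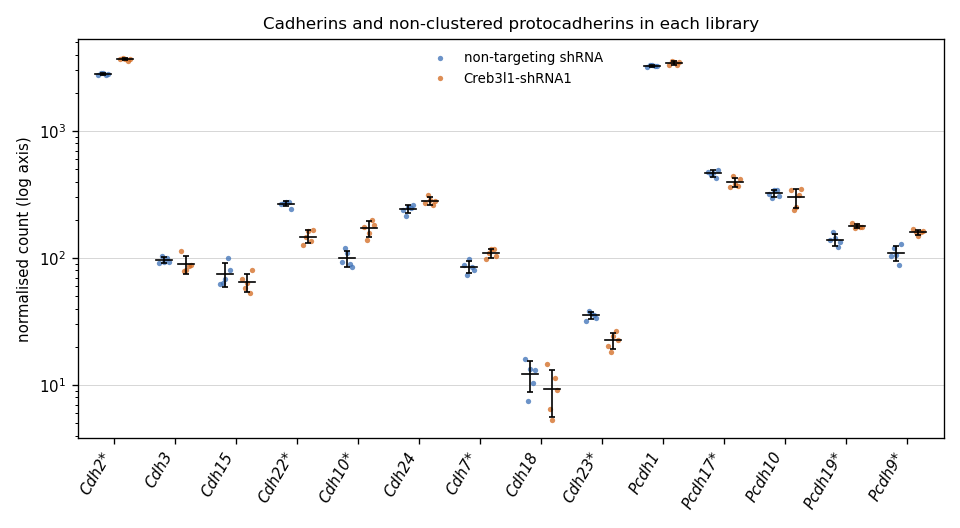
Normalised counts (log axis) of the 9 cadherins and 5 non-clustered protocadherins tested, in each library of the non-targeting line (blue) and the *Creb3l1*-shRNA1 line (orange). Black bars are means ± SD (n = 5), and an asterisk marks an adjusted P under 0.01. *Cdh2* and *Pcdh1* stand above 2700 in every library, *Cdh22* separates downwards and *Cdh10* upwards.

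Among the non-clustered protocadherins, *Pcdh1* (ENSMUSG00000051375, chromosome 18 from 38185914 to 38212053, minus strand), known from airway epithelium, had the highest mean count of all members over the 10 libraries, although *Cdh2* was above it in the knockdown line. It had 3201, 3296, 3335, 3224 and 3252 normalised counts in the non-targeting libraries and 3306, 3554, 3494, 3285 and 3465 in the knockdown libraries. The lines overlapped and the difference was small (log2 fold change 0.07 ± 0.028, adjusted P = 0.037). *Pcdh9*, *Pcdh10*, *Pcdh17* and *Pcdh19* are delta-protocadherins of the nervous system, of which *Pcdh10*, *Pcdh17* and *Pcdh19* can bind the WAVE actin-regulating complex. *Pcdh9* rose from 109.5 ± 15.6 to 160.1 ± 7.45 normalised counts (log2 fold change 0.55 ± 0.099, adjusted P = 1e-05). *Pcdh19* rose from 139.6 ± 14.6 to 178 ± 6.59 (log2 fold change 0.36, adjusted P = 0.00077), but with library offsets for transcript length and GC content its log2 fold change was 0.23 and the call was lost (adjusted P = 0.021). *Pcdh17* fell from 464 ± 26.1 to 395 ± 33.4 (adjusted P = 0.0017), a call that was lost without non-targeting replicate 5 (adjusted P = 0.011). The family therefore had no common direction, with *Pcdh10* at 323 ± 21.9 and 299.7 ± 52.1 and not called (adjusted P = 0.40).

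The protocadherin clusters lie next to each other on chromosome 18 of GRCm38, alpha from 36930184 to 37187661, beta from 37264938 to 37524479 and gamma from 37661793 to 37841873, all on the plus strand. Of their 58 isoforms 38 were tested, and 23 rose and 1 fell (63.2% called, against 40.7% of all genes). At least 10 counts in every library were seen for 37 isoforms in the non-targeting line and 38 in the knockdown line. The 37 were all among the 38, so that 100% of the first set and 97.4% of the second were shared, and the isoform outside was *Pcdhb8*. Over 57 isoforms with over 1 kb of exon not shared with another gene, the mean level per kb in the lines went together (Pearson's r = 0.990 and Spearman's rho = 0.983 on the log2(level + 1) scale). This describes isoforms of the same 10 libraries, which also share exon length and sequence, and carries no P. The 57 include untested isoforms with at most 15 counts in any library, near 0 in both lines. Such a wide range by itself favours a high correlation.

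**Figure D2:**
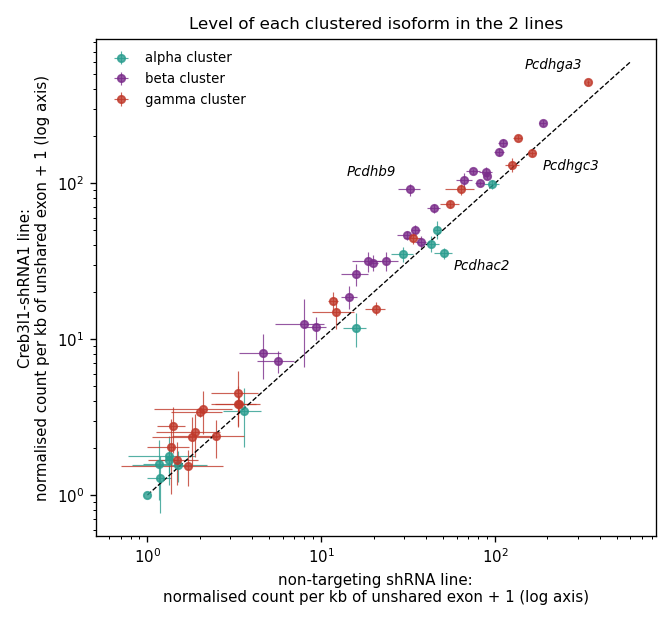
Mean normalised count per kb of unshared exon plus 1 (log axes) of 57 clustered isoforms in the non-targeting line (horizontal) and the *Creb3l1*-shRNA1 line (vertical), coloured by cluster, with error bars of 1 SD (n = 5) and a dashed line of equal level. The order of isoforms is much the same in the 2 lines (rho = 0.983), all 22 beta isoforms lie above the line of equal level and *Pcdhb9* lies farthest above it.

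The beta cluster, whose members are single-exon genes with no shared constant exon, was higher in the knockdown line along its whole length. All 22 beta isoforms were tested, all 22 had a log2 fold change above 0 (49.5% of all genes did), and 17 were called higher (20.6% of all genes were) and none lower. Changes of at least 1.5-fold were seen in 10 (3.28% of all genes tested rose by as much), and 15 of the 22 lay higher in the knockdown line without overlap (18.3% of all genes did). The median log2 fold change was 0.59, from 0.18 in *Pcdhb18* to 1.52 in *Pcdhb9*. Summed over the cluster, normalised counts were between 4408 and 4458 in the non-targeting libraries (4437 ± 19.3, SD, n = 5) and between 6271 and 6442 in the knockdown libraries (6369 ± 67.7), which is 43.5% higher.

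**Figure D3:**
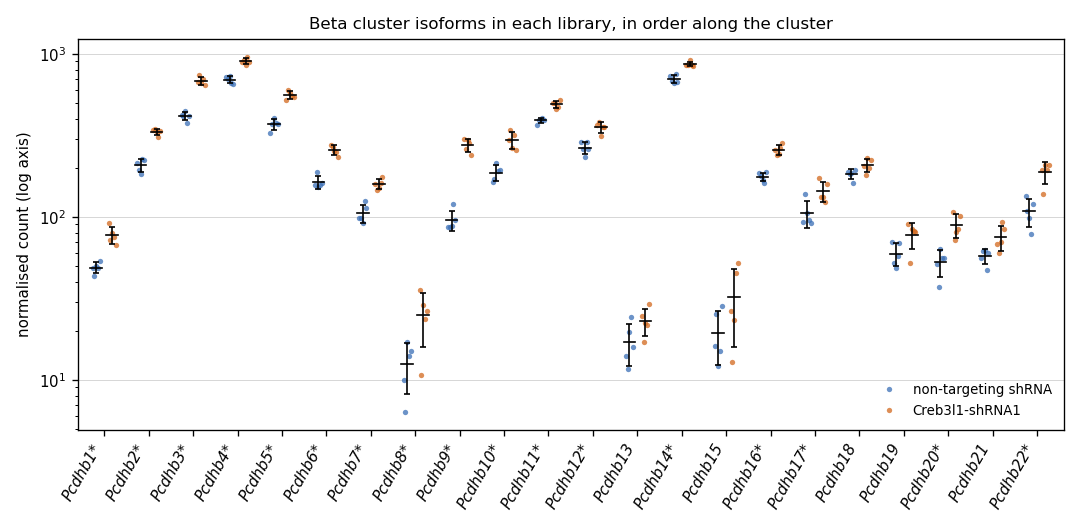
Normalised counts (log axis) of the 22 beta isoforms, ordered along the cluster, in each library of the non-targeting line (blue) and the *Creb3l1*-shRNA1 line (orange). Black bars are means ± SD (n = 5) and an asterisk marks an adjusted P under 0.01. The knockdown mean is the higher in all 22 pairs, while the isoforms keep levels that range from about those of *Pcdhb8* (12.5 in the control line) to those of *Pcdhb14* (700.2).

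*Pcdhb9* (ENSMUSG00000051242, 37400855 to 37403909) changed most. It had 86.5, 86.9, 88.0, 119 and 96.2 normalised counts in the non-targeting libraries and 299, 262, 295, 283 and 241 in the knockdown libraries. The lowest knockdown library (241) was well above the highest control library (119), and the rise was 2.88-fold (log2 fold change 1.52 ± 0.094, adjusted P = 2.6e-17). Its share of all counts on the beta cluster went from 2.15% ± 0.31 to 4.33% ± 0.38. Its neighbour *Pcdhb8* had the lowest count of the cluster in the non-targeting line, with 10.1, 6.36, 17.1, 14.1 and 15.1 in the non-targeting libraries and 35.8, 10.7, 28.7, 23.7 and 26.4 in the knockdown libraries. Here the lines overlapped through 1 knockdown library, the change was 2.01-fold (log2 fold change 1.01 ± 0.28, adjusted P = 0.0028), and the call was lost without knockdown replicate 1 or non-targeting replicate 2 (adjusted P = 0.018 and 0.014). The next gene, *Pcdhb10*, had 163, 171, 215, 192 and 193 in the non-targeting libraries and 297, 339, 265, 318 and 257 in the knockdown libraries, which is 1.58-fold higher without overlap (adjusted P = 1.8e-08).

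All 7 isoforms of the first part of the cluster, *Pcdhb1* to *Pcdhb7*, rose. *Pcdhb1* had 48.3, 43.4, 50.1, 48.8 and 53.7 normalised counts in the non-targeting libraries and 91.9, 71.7, 79.8, 75.8 and 67.2 in the knockdown libraries. *Pcdhb2* had 213, 193, 183, 227 and 223 against 339.9, 346, 329.8, 311 and 338. *Pcdhb3* had 423, 413, 445, 378 and 419 against 669, 745, 661, 697 and 643. In each of the 3 genes all knockdown libraries lay above all control libraries, and the rises were 1.58-fold, 1.59-fold and 1.64-fold (log2 fold changes 0.66 ± 0.14, 0.67 ± 0.073 and 0.72 ± 0.053, adjusted P at most 9.7e-05). *Pcdhb5* had 328, 369.8, 402, 375 and 373 in the control line and 519, 597, 577, 551 and 547 in the knockdown line. *Pcdhb6* had 157, 189, 153, 157 and 162 in the control line and 277, 269.7, 252, 251.1 and 232 in the knockdown line. Both again rose without overlap, by 1.51-fold and 1.57-fold (adjusted P = 2.2e-11 and 9.2e-09).

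The beta isoforms of highest count were *Pcdhb4* and *Pcdhb14*. *Pcdhb4* had 718, 706, 731, 666 and 656 normalised counts in the non-targeting libraries and 893, 917, 852, 955 and 891 in the knockdown libraries. *Pcdhb14* had 734, 681, 664, 750.2 and 671 against 851, 860.5, 912, 859 and 842. Both genes were separated by line in every library, with rises of 1.30-fold and 1.23-fold (log2 fold changes 0.38 ± 0.043 and 0.30 ± 0.044, adjusted P = 1.2e-09 and 1.9e-07). With the library offsets for transcript length and GC content the log2 fold change of *Pcdhb14* was 0.15 and its call was lost (adjusted P = 0.031). The share of these 2 isoforms in the counts of the cluster moved from 15.7% ± 0.78 to 14.2% ± 0.51 and from 15.8% ± 0.86 to 13.6% ± 0.55 (SD, n = 5).

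At the far end, *Pcdhb20* had 51.3, 37.1, 63.6, 56.3 and 55.6 normalised counts in the non-targeting libraries and 107.5, 71.7, 80.8, 84.3 and 101.8 in the knockdown libraries. *Pcdhb22* had 135, 109.1, 97.8, 78.9 and 119.7 against 194, 138, 209.6, 194 and 208. Neither gene had overlapping lines, and the rises were 1.70-fold and 1.75-fold (log2 fold changes 0.77 ± 0.14 and 0.81 ± 0.13, adjusted P = 1.8e-05 and 1.1e-05). *Pcdhb7*, *Pcdhb11*, *Pcdhb12*, *Pcdhb16* and *Pcdhb17* were also called higher, with log2 fold changes between 0.33 and 0.58. The 5 isoforms not called were *Pcdhb13*, *Pcdhb15*, *Pcdhb18*, *Pcdhb19* and *Pcdhb21*, at log2 fold changes of 0.43, 0.73, 0.18, 0.38 and 0.40 and adjusted P of 0.14, 0.086, 0.068, 0.025 and 0.018. Without knockdown replicate 2, *Pcdhb15*, *Pcdhb19* and *Pcdhb21* were called higher too, and 20 of the 22 beta isoforms passed. *Pcdhb13* and *Pcdhb15* were among the 3 beta isoforms of lowest level, with means between 17.1 and 32.0 normalised counts.

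In the gamma cluster 10 of 22 isoforms were tested, and 6 rose and none fell (6 of 10 called, where 40.7% of all genes were called and 20.6% were higher). Gamma transcripts join a variable exon to constant exons that all isoforms share, and levels per kb therefore use exon bases that belong to 1 gene alone. *Pcdhga3* (ENSMUSG00000104346, 37674307 to 37841873) was the most abundant clustered isoform. It had 880.1, 903, 896, 884 and 878 normalised counts in the non-targeting libraries and 1209, 1166, 1125, 1098 and 1171 in the knockdown libraries, or 341 and 444 per kb on average. The rise was 1.30-fold without overlap (log2 fold change 0.38 ± 0.038, adjusted P = 3.9e-11). All 4 tested isoforms of the gamma B subfamily rose (20.6% of all genes were higher), and its other 3 had too few counts. Those tested were *Pcdhgb1* (0.41 ± 0.089, adjusted P = 0.00018), *Pcdhgb2* (0.53 ± 0.099, adjusted P = 4.8e-05), *Pcdhgb7* (0.54 ± 0.058, adjusted P = 2.2e-10) and *Pcdhgb8* (0.42 ± 0.11, adjusted P = 0.0016), all on the log2 scale. *Pcdhgb8* is annotated as a polymorphic pseudogene. Of the gamma A isoforms, *Pcdhga4* was not called (0.34 ± 0.25, adjusted P = 0.28), and *Pcdhga1* had 63.5 ± 8.61 normalised counts in the non-targeting line and 47.7 ± 4.87 in the knockdown line, without overlap but not past the threshold (-0.41 ± 0.15, adjusted P = 0.018). Summed over the cluster the normalised counts were 2789 ± 90.1 in the non-targeting line and 3399 ± 118.8 in the knockdown line, 21.9% higher.

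The C-type isoforms differed among themselves. *Pcdhgc3*, which can bind Axin1 and dampen Wnt signalling, had 551 ± 25.9 and 523 ± 18.7 normalised counts in the non-targeting and knockdown lines (log2 fold change -0.08 ± 0.051, adjusted P = 0.21). *Pcdhgc4*, which supports the survival of interneurons, had 434 ± 38.6 and 455 ± 48.8 (0.06 ± 0.068, adjusted P = 0.47). The libraries of the lines overlapped for both. *Pcdhgc5* had 55.3, 47.7, 48.9, 47.9 and 46.2 normalised counts in the non-targeting libraries and 76.3, 88.8, 67.0, 86.2 and 62.7 in the knockdown libraries. It rose 1.55-fold without overlap (log2 fold change 0.63 ± 0.14, adjusted P = 0.00024). *Pcdhac2*, which guides the tiling of serotonergic axons, went the other way, from 150.1 ± 17.5 to 104.7 ± 8.97 (log2 fold change -0.51 ± 0.10, adjusted P = 4.3e-05), and *Pcdhac1* had at most 3 counts in any library. The share of *Pcdhgc3* in the counts of the gamma cluster was 19.8% ± 0.77 in the non-targeting line and 15.4% ± 0.098 in the knockdown line.

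In the alpha cluster, *Pcdhac2* was the one isoform of the 6 tested that was called (16.7%, against 40.7% of all genes). The 14 identifiers had a median log2 fold change of -0.0009 over those 6. *Pcdha8*, the most abundant, had 235 ± 22.1 and 242 ± 17.2 normalised counts (adjusted P = 0.69). *Pcdha2*, *Pcdha3* and *Pcdha6* had log2 fold changes of 0.13 ± 0.10, 0.26 ± 0.13 and -0.04 ± 0.12, and *Pcdha7*, the lowest of the 6 at 31.6 ± 5.22 and 23.1 ± 6.13, one of -0.44 ± 0.21 (adjusted P = 0.086). None of these 5 was called, by edgeR with or without offsets for GC content and length or by DESeq2. The summed counts of the cluster overlapped between the lines, at 708 ± 40.7 and 686 ± 20.03. Whether the alpha cluster differs from the beta cluster in its response was not tested.

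**Figure D4:**
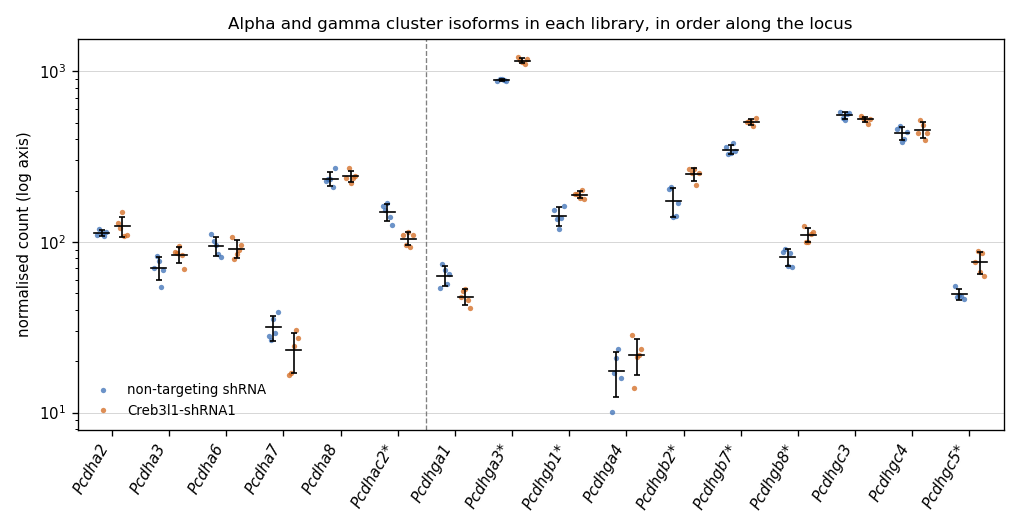
Normalised counts (log axis) of the 6 alpha (left of the dashed line) and 10 gamma isoforms tested, in each library of the non-targeting line (blue) and the *Creb3l1*-shRNA1 line (orange), with means ± SD (n = 5) and an asterisk for an adjusted P under 0.01. *Pcdhga3*, the gamma B isoforms and *Pcdhgc5* are higher in the knockdown line, *Pcdhac2* is lower, and *Pcdha8*, *Pcdhgc3* and *Pcdhgc4* overlap.

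Of 6 tested protein-coding genes, taken as the nearest before and after the clusters and the one between them, none was called higher. Before the alpha cluster, *Hars2* and *Zmat2* had log2 fold changes of 0.03 ± 0.046 and -0.05 ± 0.031 and were not called. *Taf7*, a general transcription factor gene between the beta and gamma clusters, had 263 ± 12.5 and 283 ± 19.7 normalised counts and was not called (0.11 ± 0.071, adjusted P = 0.22). Past the gamma cluster, *Diaph1*, a formin gene, fell slightly (-0.18 ± 0.035, adjusted P = 4.3e-05), and *Hdac3* and *Rell2* were not called (adjusted P = 0.095 and 0.10). Of 32 tested genes within 1 Mb of the clusters that are not members, 4 were called higher and 9 lower, with a median log2 fold change of -0.08. Over the 314 tested genes of chromosome 18 that are not members the median was 0.0032 and 40.4% were called, near the 40.7% of all genes.

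**Figure D5:**
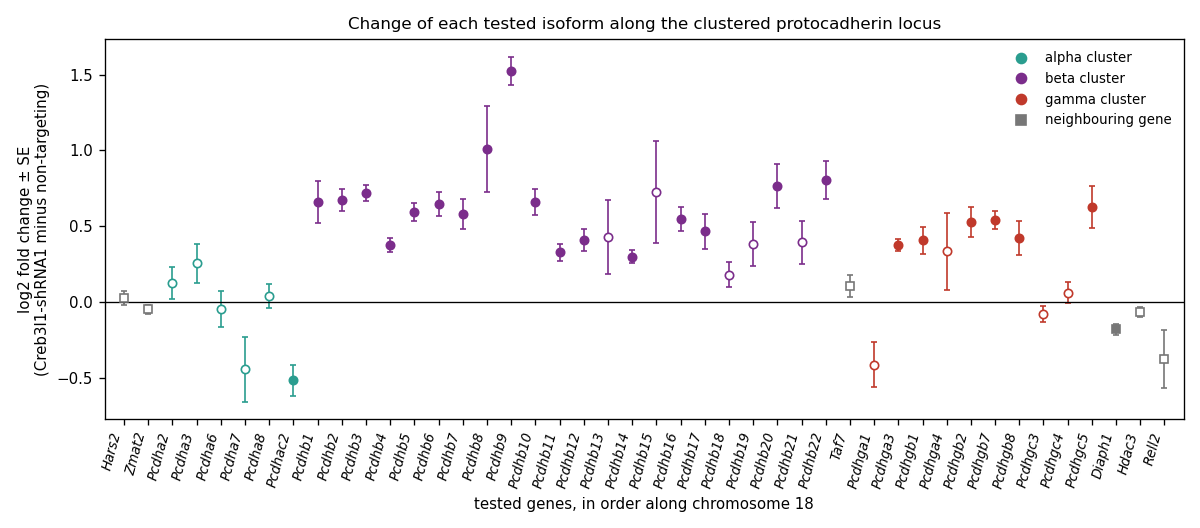
Log2 fold change (*Creb3l1*-shRNA1 minus non-targeting, ± SE) of the 38 tested clustered isoforms and of 6 neighbouring genes, placed by order along chromosome 18 and not by distance. Filled symbols mark an adjusted P under 0.01. All 22 beta isoforms lie above 0 with *Pcdhb9* at 1.52, the alpha isoforms lie on both sides of 0, and of the neighbours *Diaph1* (-0.18) is the one called.

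Genes that work with the members were examined as lists. Of 20 catenin and adherens junction genes 16 were tested, and 5 rose and 4 fell (56.2% called, against 40.7% of all genes), with a median log2 fold change of -0.03. The core catenins, which tie cadherin tails to actin, showed no called change, with log2 fold changes of 0.03 ± 0.026 for *Ctnna1*, -0.03 ± 0.021 for *Ctnnb1* and -0.02 ± 0.041 for *Ctnnd1* (adjusted P = 0.32, 0.20 and 0.73). *Jup* (plakoglobin) was slightly lower in the knockdown line (-0.10 ± 0.030, adjusted P = 0.0054), but lost its call in 9 of 18 alternative fits, that with GC and length offsets among them (-0.064, adjusted P = 0.012). *Vcl* (vinculin), which reinforces the link to actin, fell from 2169 ± 95.0 to 1259 ± 65.1 normalised counts, and *Nectin2*, a nectin of the same junctions, from 273 ± 18.7 to 182 ± 15.8.

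Of 20 regulators of the clustered promoters, all were tested, and 11 rose (55.0%, against 20.6% of all genes) and none fell, with a median log2 fold change of 0.14. With GC and length offsets 6 were higher and 1 lower (*Wapl*, which releases cohesin from DNA), with a median of 0.041. *Ctcf*, the factor that loops the clustered promoters to their enhancers, rose from 1433 ± 53.5 to 1741 ± 74.4 normalised counts (0.28 ± 0.035, adjusted P = 6.4e-09). *Rad21*, a cohesin subunit, rose by 0.13 ± 0.023, and *Smchd1*, which keeps clustered promoters silent, was 0.14 ± 0.042 higher (adjusted P = 0.0096), both on the log2 scale. The call of *Smchd1* was lost in 13 of 18 alternative fits, and with the offsets its value was 0.020 (adjusted P = 0.63). Knockdown replicate 2 stood apart for 3 genes of cohesin and its loading in the list, with 2943 normalised counts against 4527 to 4776 in the other knockdown libraries for *Smc3*, 1952 against 2935 to 3132 for *Stag2*, and 1732 against 2688 to 3246 for *Nipbl*. Without that library 13 of the 20 were called higher and none lower. Of 15 cytoplasmic partners of protocadherins 12 were tested, and 4 rose and 1 fell (41.7%, near the background). Of 9 shedding and cleavage enzymes 3 rose and 3 fell (66.7% called), among the former *Adam10*, the protease that sheds N-cadherin (0.19 ± 0.033). Whether these changes have a part in the levels of the members was not tested.

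Of 9 repressors of E-cadherin 8 were tested, and 5 rose and none fell (62.5% called, and 20.6% of all genes higher). *Zeb2* went from 15.3 ± 5.13 to 37.8 ± 5.27 normalised counts (log2 fold change 1.33 ± 0.23) and *Zeb1* from 706 ± 41.4 to 923 ± 32.0 (0.39 ± 0.044), while their target *Cdh1* had almost no counts in either line. Of 26 other genes of the cadherin superfamily 12 were tested, and 4 rose and 1 fell (41.7%, near the 40.7% of all genes), or 3 and 3 with GC and length offsets. Those that rose by at least 1.5-fold were *Cdhr1*, from 1235 ± 40.1 to 2025 ± 68.5, *Cdhr5*, from 144 ± 3.85 to 286 ± 12.2, and *Dchs1*, the ligand of the giant cadherin Fat4, from 18.6 ± 4.39 to 33.0 ± 5.09. The desmosomal *Dsg2* had 2428 ± 75.2 and 2425 ± 107.4 (adjusted P = 0.97). Over all 6 lists, 41 of 77 tested genes were called (53.2%, against 40.7% of all genes), 32 higher and 9 lower.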

How the data were processed

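RNA was measured in 10 AtT20 libraries, 5 per line. The authors prepared poly(A)-selected libraries with a stranded kit, sequenced paired 75-base reads, aligned them with STAR to GRCm38.p6, counted reads per gene with featureCounts on an Ensembl annotation and deposited whole-number counts without normalisation. Their settings for strand and for reads on several genes are not given in the sources used here. Genes such as *Pcdha1* had no count although they hold the constant exons, so reads on shared exons were not given to every gene that holds them.

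The lines were compared in R 4.3.3 with edgeR 4.0.16 (filterByExpr, TMM, robust quasi-likelihood fit, no covariate) on the whole table, with Benjamini-Hochberg adjustment over the 14336 genes tested and a threshold of 0.01. Standard errors are the absolute log2 fold change over the square root of F. Of the identifiers, 53620 had a symbol. Coordinates and exon lengths came from GENCODE on GRCm38, promoters from RefSeq (GRCm38.p6). The analysis was tested on simulated data, in which 100 genes changed by 0.5 and 100 by 1 on the log2 scale. Of these edgeR called 72% and 97%, with 3 false calls among 14336 genes. Far fewer genes were changed there than were called in the data, so the simulation does not match them in that respect. Alternatives were DESeq2 1.42.0, RLE factors, library totals, other filters, a replicate block, GC and length offsets, fits that each lacked 1 library, a threshold of 0.05 and a 1.5-fold minimum. The fit without robust dispersions was added after the data were seen.

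The members, gene lists and tests were chosen with earlier results of these data known. Values are given for each library for members called with at least 1.5-fold, for the 5 of highest count, and for those seen in all libraries of one line and in at most 1 of the other. From the lists, genes called with at least 1.5-fold and *Ctnna1*, *Ctnnb1*, *Ctnnd1*, *Jup*, *Ctcf*, *Rad21*, *Smchd1*, *Adam10* and *Zeb1* are named. *Dsg2*, *Wapl*, *Smc3*, *Stag2*, *Nipbl*, the neighbouring genes and the 2 promoters printed were chosen after their values were seen. Dixon's critical value for 5 libraries (0.710) was used for libraries that stand apart.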

Additional observations from a re-analysis of the deposited data

Results flagged for a closer look

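In 7 groups of 5 libraries, of those made by 52 tested members in 2 lines, 1 library stood apart from the other 4 by Dixon's criterion, where chance gives about 1 in 20, or 5.2. In the non-targeting line, replicate 2 was the highest for *Pcdhb6*, at 189 normalised counts against 153 to 162 in the others, and for *Pcdhb17*, at 139 against 91.5 to 105.1. Within the *Creb3l1*-shRNA1 line, replicate 2 was the lowest for *Pcdhb19*, at 52.4 against 80.9 to 90.0, and for *Pcdhb22*, at 138 against 194 to 209.6. Replicate 3 of that line was the highest for *Pcdhb14*, at 912 against 842 to 860.5. Replicate 4 was the lowest for *Pcdhgb2*, at 214 against 252 to 267, and replicate 1 the highest for *Cdh3*, at 113 against 79.2 to 88.2. Without the library concerned *Pcdhb19* was called higher (log2 fold change 0.49, edgeR adjusted P = 0.0021), and the calls of the other 6 genes were as with it.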

How the results depend on the processing

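Of the 32 called members, 26 kept their direction and their call in every fit made, and *Cdh7*, *Cdh23*, *Pcdh17*, *Pcdh19*, *Pcdhb8* and *Pcdhb14* kept their direction but lost the call in at least 1. Under the other scalings, filters and tests the number of members called was between 30 and 33, with 26 to 29 higher, and with an adjusted P under 0.05 it was 37. With a minimum change of 1.5-fold it was 14 (12 higher and 2 lower), with 10 in the beta cluster, 1 in the gamma cluster, 0 in the alpha cluster, 0 among the non-clustered protocadherins and 3 among the cadherins. The same minimum left 1108 of all genes (470 higher and 638 lower) and 6 of the partner and related genes. With each library left out in turn, 29 to 34 members were called, 26 to 31 of them higher and 3 to 4 lower. The beta cluster then had 16 to 20 calls, and the cadherins had 3 to 5, with 3 without non-targeting replicate 2 or 4, where *Cdh7* and *Cdh23* lost their calls. Among the members and the partner genes named by rule, the sign changed in 3 that were not called. These were the log2 fold change of Pcdha8 (-0.025 with GC and length offsets, and -0.00042 to 0.10 with libraries left out), the log2 fold change of Pcdha6 (-0.10 to 0.022 with libraries left out) and the log2 fold change of Ctnnd1 (-0.043 to 0.0088). The cause of these changes was not tested. The median log2 fold change of all genes moved by less than 0.1 under each alternative.

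With the replicate number as a block, 32 members were called, the count of all genes called was 6013, and the block changed no call of a member. Libraries of the same number did not deviate together to a marked degree (correlations from -0.0647 to 0.0401). Among the 5 libraries of the other line, 4 of 10 libraries correlated best with their own number, and whether chance gives as many was not tested. These values do not tell whether samples of the same number share a culture or batch. Counting error limits the genes of few reads, such as *Pcdhb8*, *Pcdhb13*, *Pcdhb15* and *Cdh18*. Reads on exons that isoforms or overlapping genes share could be split or dropped by the counting.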
